A study of Homo sapiens with 9 samples.

Results

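The enzymes HMGCS1, IDI1, FDFT1, SQLE, LSS, NSDHL, DHCR7 and ACAT2 act in the synthesis of cholesterol. They were chosen by symbol, and each was read from the brightest of the probe sets annotated to it alone. Of these 8 enzymes, 7 had such a probe set and were tested among 13056 genes, and FDFT1, with which the annotation used pairs no probe set alone, was not analysed here. The cells were HepG2, a human liver cancer cell line with many hepatocyte functions. RNA was measured on 9 oligonucleotide arrays in 3 groups of 3, which were knockdown1, knockdown2 and the knockdown control. By the design text, siRNA was used to knock down HNF4alpha together with HNF4gamma, nuclear receptors that drive hepatocyte genes. The labels say neither how knockdown1 and knockdown2 differ nor what the control received, and they do not state that replicates were separate cultures. The p-values thus rest on array-to-array spread that may be technical.

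Cholesterol is built from acetyl-CoA through the mevalonate pathway, which yields isoprenoid units, squalene and then the sterol ring. Most genes of the pathway are turned on together by the SREBP transcription factors when sterols in the endoplasmic reticulum run low, and the liver is a main site of this synthesis. ACAT2 joins acetyl-CoA units in the cytosol, HMGCS1 makes HMG-CoA, and IDI1 isomerises the isoprenoid unit made from mevalonate. SQLE oxidises squalene, LSS closes it to lanosterol, NSDHL helps to remove methyl groups from the sterol ring, and DHCR7 catalyses a last reduction to cholesterol. Known SREBP targets of this kind often carry CCAAT boxes, which bind NF-Y, near their starts.

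The promoters of HMGCS1, LSS and NSDHL are shown because these members were lower in both knockdowns. ACAT2, the other member lower in both, has no entry in the promoter table used here. The sequences are the 250 bases upstream of the annotated start, from RefSeq on GRCh38.p14, 5′ to 3′ on the gene's strand, with matches to CCAAT on either strand in capitals. They lie at chr5:43313413-43313662 on the minus strand for HMGCS1, at chr21:46228775-46229024 on the minus strand for LSS, and at chrX:152830813-152831062 on the plus strand for NSDHL.
HMGCS1: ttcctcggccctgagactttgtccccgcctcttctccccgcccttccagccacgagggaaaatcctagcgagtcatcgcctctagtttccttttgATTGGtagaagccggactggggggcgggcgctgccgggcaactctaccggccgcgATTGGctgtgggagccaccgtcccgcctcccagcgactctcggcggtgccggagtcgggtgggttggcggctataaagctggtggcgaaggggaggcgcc
LSS: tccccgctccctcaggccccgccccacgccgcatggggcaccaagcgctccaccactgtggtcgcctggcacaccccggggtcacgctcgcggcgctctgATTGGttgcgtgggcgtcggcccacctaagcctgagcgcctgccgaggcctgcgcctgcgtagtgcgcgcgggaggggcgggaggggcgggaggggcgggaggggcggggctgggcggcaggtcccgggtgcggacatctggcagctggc
NSDHL: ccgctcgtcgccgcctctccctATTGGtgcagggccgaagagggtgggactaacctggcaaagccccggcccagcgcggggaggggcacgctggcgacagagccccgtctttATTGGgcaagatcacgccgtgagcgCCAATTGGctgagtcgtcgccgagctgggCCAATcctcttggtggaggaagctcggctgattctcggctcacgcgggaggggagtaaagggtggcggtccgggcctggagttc
NSDHL held 5 matches, HMGCS1 2 and LSS 1, and a pair of the NSDHL matches on opposite strands overlap. HMGCS1 has a second annotated start, not shown, whose window held 0 matches to CCAAT. Windows of 5 members were read, at 9 annotated starts, and SQLE was not among them. Of these 9 windows, 6 held CCAAT, at least 1 in each of the 5 genes, against 32.0% of all 35116 promoter windows of the same length. Among the other synthesis genes read in this way, 10 of 13 windows held it. TCACNCCAC, a form of the sterol regulatory element, was in none of the 9 windows and in 0.883% of all promoters. CAAAGTCCA, a sequence preferred by HNF4 factors, was found in 1 of the 9 windows, on the minus strand of the promoter 48 bases upstream of the second HMGCS1 start (chr5:43313221-43313229), and in 0.325% of all promoters. These matches describe the letters of the windows only, and no binding was measured.

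Each array gives a linear signal per probe set, made by the authors with MAS5. As deposited, the highest array median was 1.28 times the lowest, so each array was multiplied by 0.898 to 1.15 to bring its median to 14.1, and all signals below are on that scale unless said otherwise. With 3 arrays per group the precision is limited. This scaling widened the replicate spread of bright genes. Over 5162 genes with a mean signal of at least 200, the median SD of log2 values was 0.16 in knockdown1, 0.077 in knockdown2 and 0.22 in control, against 0.095, 0.076 and 0.11 in the same order for the values as deposited. HNF4G, which encodes HNF4gamma, had signals of 14.4, 23.5 and 17.4 in knockdown1, 41.9, 24.4 and 28.6 in knockdown2, and 45.2, 47.9 and 44.9 in control, and it fell in knockdown1 (limma adjusted p = 5.38e-04) but missed the threshold in knockdown2 (adjusted p = 0.142). Its dimmer probe set, 207456_at, was lower in both, by -2.20 in knockdown1 and -2.48 in knockdown2 (SE 0.72 each, adjusted p = 0.0258 and 0.0148 over all kept probe sets). The signals of 207456_at were at most 13.3 on every knockdown array, under the common median of 14.1, and 37.5, 28.4 and 21.3 in control. The sizes of these 207456_at changes are thus uncertain. HNF4A was not analysed here. All 11 hepatocyte markers were above the filter on dim probe sets, with summed signals of 35616 to 42716 in knockdown1, 39384 to 42180 in knockdown2 and 42490 to 51722 in control. Of 8 fibroblast markers the summed signal was 134 to 185, 139 to 161 and 120 to 170, and of 6 endothelial markers 84.2 to 120, 101 to 141 and 73.4 to 85.1, in the same order. Of 7 leukocyte markers 5 were annotated, and LYZ, with means of 3005 in knockdown1, 3714 in knockdown2 and 3325 in control, made up most of their sum of 2726 to 4228 over the arrays.

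**Figure D1:**
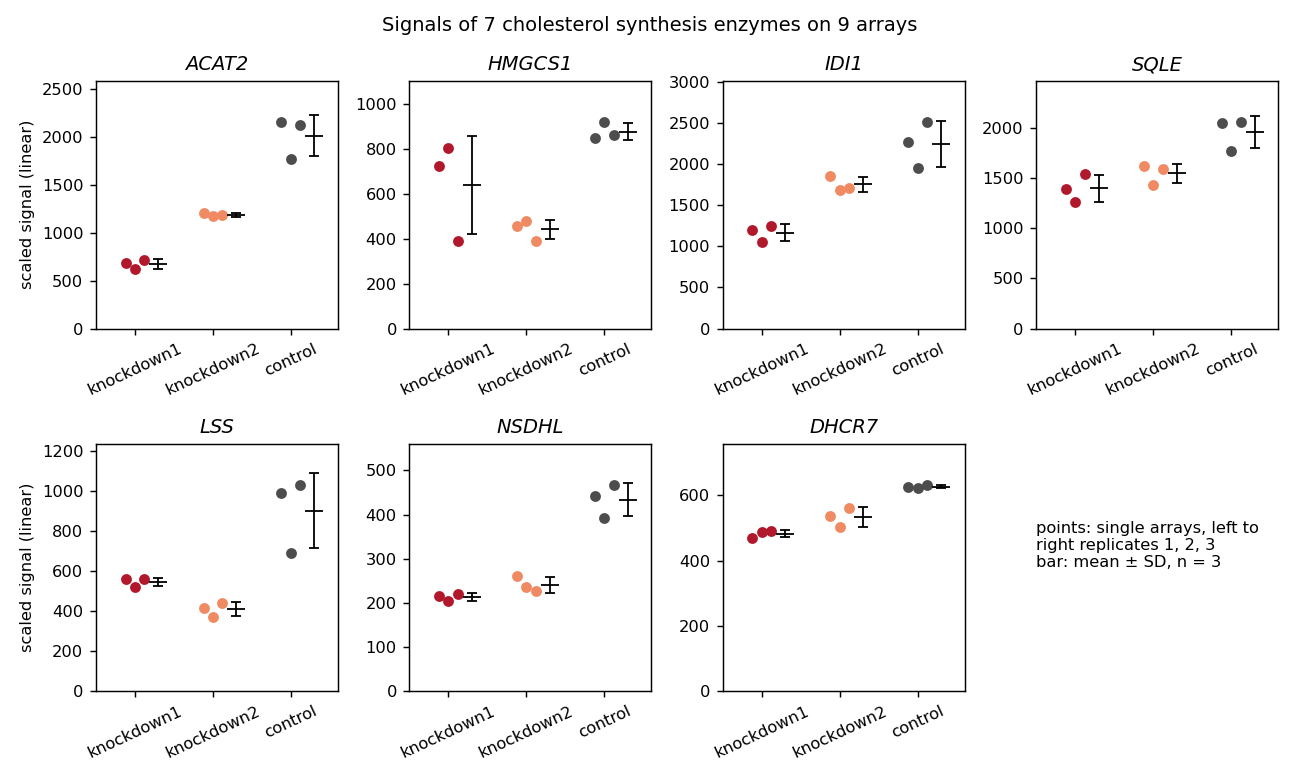
Scaled signal (linear, axis from 0) of the 7 enzymes on every array, with the mean and SD of each group (n = 3). For each enzyme the highest of 6 knockdown arrays was under the lowest of 3 control arrays, and for HMGCS1 replicate 3 of knockdown1 (390) stood apart from replicates 1 and 2 (721 and 801).

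All 7 enzymes were lower in knockdown1 than in control. The changes ranged from -0.38 for DHCR7 to -1.58 for ACAT2 on the log2(signal + 1.41) scale, on which every fold change here is given. In knockdown2, ACAT2, HMGCS1, LSS and NSDHL fell, and IDI1, SQLE and DHCR7 missed the threshold of an adjusted p under 0.05. The percentage of all tested genes called lower was 19.0% in knockdown1 and 13.9% in knockdown2. With the values as deposited all 7 enzymes fell in knockdown2, beside 20.0% of all genes (7 of 7 also with quantile normalization, beside 20.2%), and 6 of the 7 in knockdown1, beside 20.1%, with HMGCS1 as the exception. For each of the 7 enzymes every array of each knockdown lay below every control array, which was so for 21.7% of all tested genes in knockdown1 and for 19.8% in knockdown2. The median change of the 7 was -0.70 in knockdown1 and -0.76 in knockdown2, beside -0.008 and 0.014 over all tested genes. Both comparisons share the 3 control arrays. In bulk RNA, fewer cells of a type and less RNA per cell cannot be told apart. Averaged over both knockdowns all 7 were called lower, as were 17.9% of all tested genes.

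ACAT2 (probe set 209608_s_at) makes acetoacetyl-CoA, the substrate of HMG-CoA synthesis, in the cytosol. It had signals of 680, 618 and 719 in knockdown1, 1202, 1169 and 1184 in knockdown2, and 2152, 1767 and 2122 in control. The 3 groups did not overlap, and knockdown1 was the lowest. The mean was 33.4% of control in knockdown1 and 58.8% of control in knockdown2. ACAT2 fell by 1.58 in knockdown1 (SE 0.13, limma adjusted p = 2.05e-10) and fell by 0.76 in knockdown2 (SE 0.13, limma adjusted p = 6.35e-05). This symbol is distinct from SOAT2, the sterol acyltransferase once also called ACAT2, which fell by 3.87 in knockdown1 (SE 0.26) and fell by 3.34 in knockdown2 (SE 0.26).

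HMGCS1 (205822_s_at) condenses acetyl-CoA with acetoacetyl-CoA. Its signals were 721, 801 and 390 in knockdown1, 454, 476 and 391 in knockdown2, and 848, 917 and 861 in control. Replicate 3 of knockdown1 was at the level of knockdown2, while the other knockdown1 arrays were nearer to control. HMGCS1 was at 50.3% of control in knockdown2 (log2 fold change -0.99, SE 0.18, limma adjusted p = 1.40e-04). In knockdown1 it was at 72.8% of control (-0.52, SE 0.18, limma adjusted p = 0.0287), and without replicate 3 of knockdown1 the value was -0.20 (adjusted p = 0.319). Leaving out the first or the second control array also ended this call (adjusted p = 0.0549 and 0.0707). The values as deposited gave -0.43 (adjusted p = 0.153). The other probe set, 221750_at, gave -0.37 in knockdown1 (adjusted p = 0.0694 over all probe sets) and -0.92 in knockdown2 (adjusted p = 1.11e-04), so by this probe set HMGCS1 passed in knockdown2 and not in knockdown1.

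IDI1 (204615_x_at), the isomerase that readies isoprenoid units for condensation, had signals of 1193, 1049 and 1252 in knockdown1, 1858, 1691 and 1715 in knockdown2, and 2267, 1951 and 2509 in control. The 3 groups did not overlap, and as for ACAT2 knockdown1 was the lowest. IDI1 was at 52.0% of control in knockdown1 (-0.94, SE 0.13, limma adjusted p = 2.09e-06). In knockdown2 it was at 78.3% of control (-0.35, SE 0.13, limma adjusted p = 0.0513). As deposited, its means were 1212 ± 52.0 in knockdown1, 1684 ± 93.6 in knockdown2 and 2189 ± 30.1 in control (SD, n = 3 each), and the knockdown2 value of -0.38 (SE 0.063) passed (adjusted p = 2.45e-04). A second bright probe set, 208881_x_at, gave -0.97 and -0.38 in knockdown1 and knockdown2, and both values passed (adjusted p = 1.10e-05 and 0.0408 over all probe sets). The suffix x marks probe sets whose probes may also bind related sequences. A pair of much dimmer IDI1 probe sets ran the other way. The first, 242065_x_at, rose by 0.69 in knockdown1 (SE 0.25, adjusted p = 0.0397), and the second, 233014_at, gave 0.56 in knockdown1 and 0.63 in knockdown2 without passing (adjusted p = 0.26 and 0.223). With all 4 probe sets averaged, IDI1 gave -0.16 in knockdown1 and the call ended (adjusted p = 0.403).

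SQLE (209218_at), the squalene epoxidase, ranged from 1266 to 1539 in knockdown1, from 1434 to 1620 in knockdown2 and from 1772 to 2058 in control. It fell by 0.48 in knockdown1 (SE 0.13, limma adjusted p = 0.00452), to 71.5% of control. In knockdown2 it was at 79.0% of control (-0.34, SE 0.13, limma adjusted p = 0.0532), and with the values as deposited this passed (-0.37, adjusted p = 5.40e-04). The other 3 SQLE probe sets lay between -0.40 and -0.74 in knockdown1 and between -0.23 and -0.42 in knockdown2, all below control on average. In knockdown2 none of these 3 passed (limma adjusted p 0.0751 to 0.315 over all probe sets). In knockdown1 213562_s_at missed the threshold (limma adjusted p = 0.0587) and the others passed.

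LSS (202245_at), the lanosterol synthase, had signals of 559, 520 and 558 in knockdown1, 415, 371 and 442 in knockdown2, and 989, 688 and 1030 in control. Here knockdown2 was the lowest group, and no groups overlapped. LSS was at 60.4% of control in knockdown1 (-0.70, SE 0.15, limma adjusted p = 6.11e-04) and at 45.3% of control in knockdown2 (-1.12, SE 0.15, limma adjusted p = 2.04e-06). The dimmer probe sets 211019_s_at and 211018_at gave -0.78 and -0.98 in knockdown1 (adjusted p = 0.00389 and 6.82e-04 over all probe sets). In knockdown2 they gave -0.88 (adjusted p = 0.00186) and -0.39 (adjusted p = 0.166).

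NSDHL (209279_s_at), the sterol dehydrogenase of demethylation, had signals of 215, 204 and 221 in knockdown1, 260, 236 and 226 in knockdown2, and 441, 393 and 467 in control. The highest knockdown array, at 260, was well under the lowest control array, at 393. It was at 49.2% of control in knockdown1 (-1.01, SE 0.14, limma adjusted p = 2.32e-06) and at 55.6% in knockdown2 (-0.84, SE 0.14, limma adjusted p = 4.91e-05). Its other probe set gave -1.14 and -0.81, and both passed. DHCR7 (201790_s_at), the sterol reductase of the last step, ranged from 470 to 492 in knockdown1, from 503 to 563 in knockdown2 and from 624 to 632 in control. It fell by 0.38 in knockdown1 (SE 0.13, limma adjusted p = 0.0297), a call that ended in 6 of 9 fits without 1 array (adjusted p 0.0558 to 0.0985), namely without replicate 1 or 2 of knockdown1, any replicate of knockdown2, or control replicate 1. The value in knockdown2 was -0.23 (SE 0.13, limma adjusted p = 0.211). By the brightest probe sets these were the smallest changes among the members. The other DHCR7 probe set, 201791_s_at, gave -0.24 in knockdown1 (SE 0.15, adjusted p = 0.251 over all probe sets) and -0.40 in knockdown2 (SE 0.15, adjusted p = 0.0562).

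**Figure D2:**
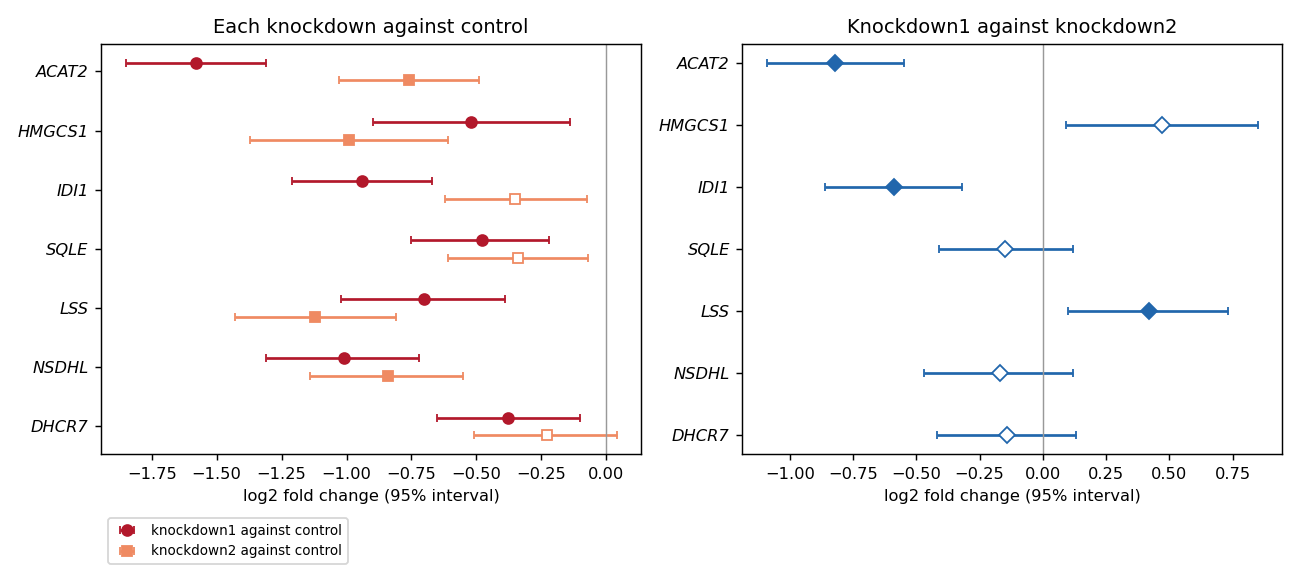
Log2 fold changes of the 7 enzymes with 95% intervals of the limma fit, each knockdown against control on the left and knockdown1 against knockdown2 on the right. Filled symbols passed an adjusted p under 0.05 over all 13056 genes. All 14 values against control are below 0, and the differences between the knockdowns lie on both sides of 0.

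The next comparison asks where the knockdowns differed from each other. ACAT2 and IDI1 were lower in knockdown1 than in knockdown2, and LSS was higher, beside 16.1% and 10.5% of all tested genes called lower and higher. ACAT2 in knockdown1 was at 56.8% of its level in knockdown2 (-0.82, SE 0.13, limma adjusted p = 2.22e-05), and IDI1, by its brightest probe set, at 66.4% (-0.59, SE 0.13, limma adjusted p = 0.00112). The IDI1 probe sets disagreed, since the dim 242065_x_at was higher in knockdown1 than in knockdown2 (0.84, SE 0.25, adjusted p = 0.0157 over all probe sets), and with the kept probe sets averaged the IDI1 value was -0.10 (adjusted p = 0.662). The knockdown1 arrays lay wholly below the knockdown2 arrays for 4 members, beside 24.8% of all tested genes, and wholly above them for 1 member, LSS, beside 18.9%. LSS was higher in knockdown1 (0.42, SE 0.15, limma adjusted p = 0.0437) by its brightest probe set. This LSS call ended in 7 of 9 fits without 1 array (adjusted p 0.0581 to 0.197), all but those without control replicate 2 or 3, although with the values as deposited it was 0.54 (adjusted p = 5.21e-04). The LSS probe sets disagreed as well, since 211018_at was lower in knockdown1 than in knockdown2 (-0.59, SE 0.20, adjusted p = 0.0346 over all probe sets). HMGCS1 gave 0.47 (SE 0.18, limma adjusted p = 0.0602), and 0.79 without replicate 3 of knockdown1 (adjusted p = 3.30e-04). By its other probe set HMGCS1 was higher in knockdown1 than in knockdown2 (0.55, SE 0.15, adjusted p = 0.0102 over all probe sets). The remaining 3 members did not pass. Their 95% intervals ran from -0.41 to 0.12 for SQLE, from -0.47 to 0.12 for NSDHL and from -0.42 to 0.13 for DHCR7, so differences of that size are not excluded. The scaling matters here, because the median change over all tested genes, knockdown1 over knockdown2, was -0.033 on the scaled values and 0.084 on the values as deposited.

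**Figure D3:**
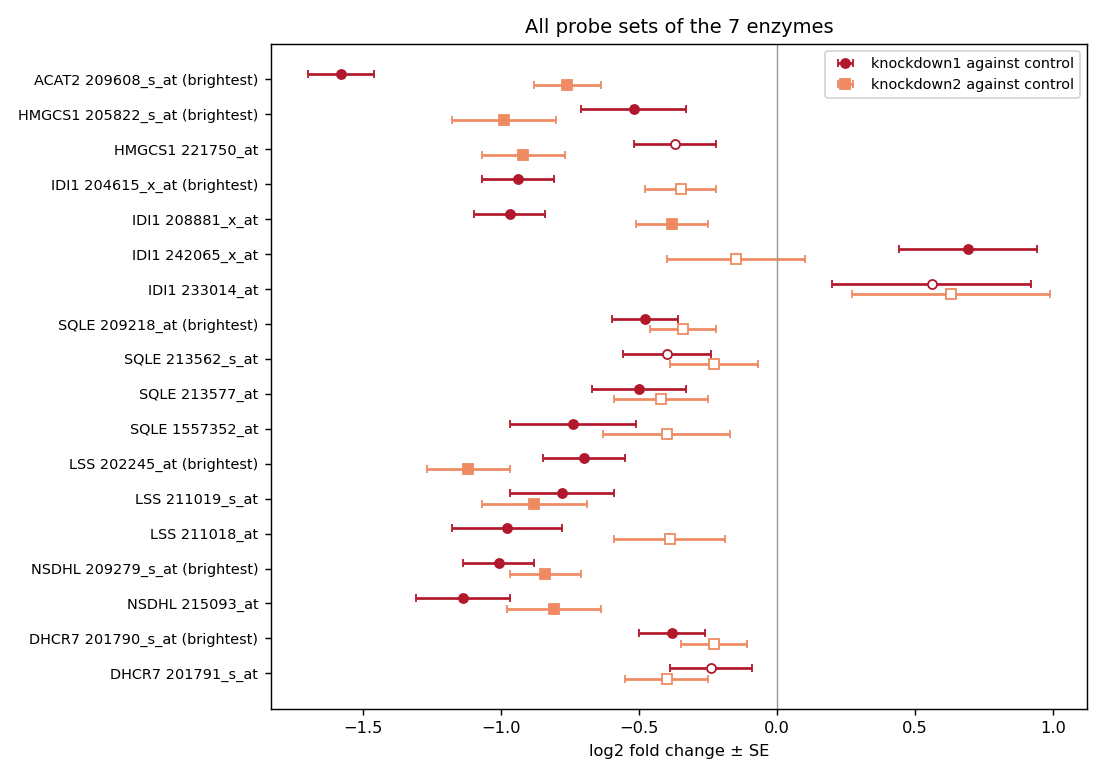
Log2 fold change ± SE of every probe set of the 7 enzymes, 18 in all, in knockdown1 (circles) and knockdown2 (squares) against control. Filled symbols passed an adjusted p under 0.05 over all kept probe sets. Every value lies below 0 except 242065_x_at of IDI1 in knockdown1 and 233014_at of IDI1 in both knockdowns.

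The other genes of cholesterol synthesis moved downward or did not pass. Of these genes 11 were tested. In knockdown1, 6 of the 11 fell and 0 rose, beside 19.0% of all tested genes called lower and 14.3% called higher. In knockdown2, 5 fell and 0 rose, beside 13.9% and 13.7%. The median changes of the 11 were -0.49 and -0.47, beside -0.008 and 0.014 over all tested genes. With the values as deposited 8 of the 11 fell in knockdown2, beside 20.0% of all tested genes, and without replicate 3 of knockdown2 3 did. EBP, a sterol isomerase, fell by 0.82 in knockdown1 (SE 0.14) and fell by 0.81 in knockdown2 (SE 0.14) by its brightest probe set. A second bright EBP probe set, 202735_at, gave -0.96 in knockdown1 and -0.97 in knockdown2 (adjusted p = 1.46e-04 and 1.78e-04 over all probe sets). In the same order the dim 213789_at gave -0.32 and 0.043 and the dim 231320_at 0.56 and 0.61, without passing. With its 4 kept probe sets averaged, EBP gave -0.38 in knockdown1 and -0.28 in knockdown2, and both calls ended (adjusted p = 0.0608 and 0.191). MSMO1, which oxidises sterol methyl groups in the step before NSDHL, averaged 2027 ± 162 in knockdown1, 2465 ± 60.2 in knockdown2 and 3747 ± 759 in control (SD, n = 3 each), with changes of -0.87 in knockdown1 and -0.58 in knockdown2 (SE 0.14 each). ERG28, a scaffold protein of the demethylation complex, fell by 0.61 in knockdown1 (SE 0.15) and fell by 0.71 in knockdown2 (SE 0.15). Its dimmer probe set 217188_s_at gave -0.30 in knockdown1 (adjusted p = 0.136 over all probe sets) and -0.50 in knockdown2 (adjusted p = 0.0167). HSD17B7, the keto reductase of that complex, fell by 0.80 in knockdown1 (SE 0.15) and fell by 0.47 in knockdown2 (SE 0.15), and its x-type probe set may also bind related sequences. For these 4 genes, by their brightest probe sets, limma gave adjusted p-values between 1.17e-05 and 0.019. The HSD17B7 call in knockdown2 ended without any single replicate of knockdown2 or without control replicate 3 (adjusted p 0.0583 to 0.0701).

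Others were called in a single knockdown. LBR, a sterol reductase that is also an inner nuclear membrane protein, averaged 332 ± 51.3 in knockdown1, 1403 ± 119 in knockdown2 and 1674 ± 475 in control (SD, n = 3 each). It fell by 2.30 in knockdown1 (SE 0.17, limma adjusted p = 1.08e-11), and it was lower in knockdown1 than in knockdown2 (-2.08, SE 0.17, limma adjusted p = 1.38e-10). TM7SF2, the other sterol reductase of that step, gave -0.041 in knockdown1 (SE 0.20) and fell by 0.58 in knockdown2 (SE 0.20, limma adjusted p = 0.0254), with a difference of 0.54 between knockdown1 and knockdown2 (SE 0.20, limma adjusted p = 0.0396). FDPS, the farnesyl diphosphate synthase next to IDI1 in the pathway, fell by 0.49 in knockdown1 (SE 0.14, limma adjusted p = 0.00851), gave 0.15 in knockdown2 (SE 0.14), and was lower in knockdown1 than in knockdown2 (-0.64, SE 0.14, limma adjusted p = 0.00113). The TM7SF2 call in knockdown2 ended without replicate 2 or 3 of knockdown2 or control replicate 1 or 2 (adjusted p 0.0652 to 0.0986), and its difference between the knockdowns was 0.26 without replicate 3 of knockdown1 (adjusted p = 0.344). That difference also ended without replicate 2 or 3 of knockdown2 (adjusted p = 0.12 and 0.109). The FDPS call in knockdown1 ended without replicate 2 of knockdown1 (-0.39, adjusted p = 0.0667). MVK, PMVK, MVD and SC5D passed in no comparison on the scaled values by their brightest probe sets. The other MVK probe sets above the filter, 215649_s_at and 204056_s_at, were lower in knockdown2 than in control (-0.97 and -0.95, adjusted p = 0.00369 and 0.00151 over all probe sets).

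**Figure D4:**
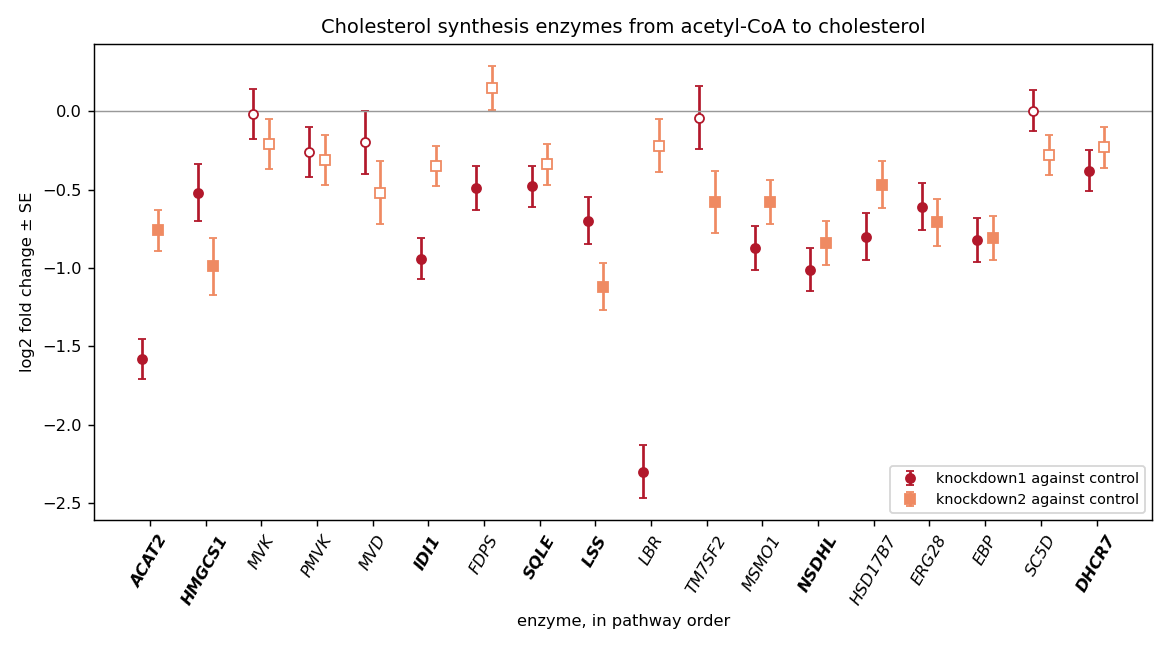
Log2 fold change ± SE of 18 genes of cholesterol synthesis in knockdown1 (circles) and knockdown2 (squares) against control, in pathway order from acetyl-CoA to cholesterol, with the 7 members in bold. Filled symbols passed an adjusted p under 0.05. LBR in knockdown1 (-2.30) is the lowest value, and the 2 values above 0 are FDPS in knockdown2 (0.15) and SC5D in knockdown1 (0.0026), neither of which passed.

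Among the regulators of the pathway, SREBF2, which encodes the SREBP that acts mainly on cholesterol genes, had signals of 89.5 ± 10.3 in knockdown1, 87.1 ± 7.20 in knockdown2 and 128 ± 8.81 in control (SD, n = 3 each). It fell by 0.52 in knockdown1 (SE 0.16, limma adjusted p = 0.0143) and fell by 0.55 in knockdown2 (SE 0.16, limma adjusted p = 0.0109). SREBF1 passed against control in neither knockdown (-0.39 and 0.30, SE 0.22 each) and was lower in knockdown1 than in knockdown2 (-0.69, SE 0.22, limma adjusted p = 0.0182). The proteases that release SREBPs from the membrane moved in opposite directions. MBTPS1 rose by 0.97 in knockdown1 (SE 0.14) and by 0.38 in knockdown2 (SE 0.14, limma adjusted p = 0.0477), while MBTPS2 fell by 0.97 in knockdown1 (SE 0.15) and fell by 0.55 in knockdown2 (SE 0.15). INSIG2, which retains SREBPs in the endoplasmic reticulum, rose in knockdown1 (0.62, SE 0.15, limma adjusted p = 0.00149) and not detectably in knockdown2 (0.13, SE 0.15). SCAP passed in neither knockdown. The SREBF2 calls ended in 2 of 9 fits without 1 array in knockdown1 (without its replicate 2 or control replicate 1, adjusted p = 0.075 and 0.0684). In knockdown2 they ended in 3 of 9 (without its replicate 2 or 3 or control replicate 1, adjusted p 0.052 to 0.0585), and with probe sets averaged SREBF2 gave -0.36 there (adjusted p = 0.111). The MBTPS1 call in knockdown2 ended in 7 of 9 (adjusted p 0.0573 to 0.157, all but those without knockdown1 replicate 3 or control replicate 3), and the SREBF1 difference ended in 3 of 9 (without replicate 1 or 3 of knockdown1 or replicate 3 of knockdown2, adjusted p 0.056 to 0.111). The 3 probe sets of INSIG1, the other INSIG gene, had signals of at most 10.4 on every array, under the common median of 14.1, and were not tested. Of the 4 tested genes of sterol uptake and transport, STARD4, NPC2 and NPC1, which move cholesterol between membranes and out of lysosomes, fell in knockdown1 (-1.18, SE 0.13, -0.94, SE 0.14, and -0.87, SE 0.14), and MYLIP, a ubiquitin ligase, rose by 1.11 in knockdown1 (SE 0.16) and by 1.31 in knockdown2 (SE 0.16). In knockdown2 STARD4 changed by -0.42 (SE 0.13) and NPC1 by -0.44 (SE 0.14), both past the threshold. These calls ended without replicate 1 of knockdown2 for both genes, without its replicate 3 or control replicate 1 for STARD4, and without its replicate 2 for NPC1 (adjusted p 0.0579 to 0.121). With its probe sets averaged, NPC1 gave -0.14 in knockdown2 (adjusted p = 0.699).

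Paralogues of the members and the sterol acyltransferase gene SOAT1 did not all follow the members. ACAT1, the mitochondrial thiolase, averaged 1574 ± 190 in knockdown1, 2021 ± 43.0 in knockdown2 and 1579 ± 250 in control (SD, n = 3 each), and it rose by 0.37 in knockdown2 (SE 0.14, limma adjusted p = 0.0454), a call that ended in 6 of 9 fits without 1 array (adjusted p 0.0598 to 0.166), all but those without knockdown1 replicate 2 or 3 or control replicate 3. IDI2 had mean signals of 6.11 in knockdown1, 6.72 in knockdown2 and 3.96 in control and was not tested. SOAT1 esterifies cholesterol in many tissues and, like SOAT2, is not a paralogue of ACAT2. It fell by 1.03 in knockdown1 (SE 0.17, limma adjusted p = 1.46e-05) and gave -0.076 in knockdown2 (SE 0.17). Of 7 tested genes of the isoprenoid branches that leave the pathway, 1 fell and 2 rose in each knockdown, beside 19.0% of all tested genes called lower and 14.3% called higher in knockdown1, and 13.9% and 13.7% in knockdown2. The prenyltransferase subunit gene PGGT1B rose by 0.74 in both knockdowns (SE 0.17 each), FNTA rose by 0.51 in knockdown1 and by 0.47 in knockdown2 (SE 0.14 each), PDSS1 fell in knockdown1 (-0.58, SE 0.17), and COQ2, which prenylates the ubiquinone ring, fell in knockdown2 (-1.07, SE 0.19). Of 8 tested fatty acid synthesis genes, 4 fell in knockdown1 and 2 in knockdown2, and 0 rose. ACSS2, which makes cytosolic acetyl-CoA from acetate, fell by 1.78 in knockdown1 (SE 0.16) and fell by 0.89 in knockdown2 (SE 0.16). FADS2, a fatty acid desaturase, and the elongase gene ELOVL6 fell in knockdown1 (-1.58, SE 0.34, and -1.09, SE 0.18), and the desaturase gene SCD fell in both (-0.43 in knockdown1 and -0.62 in knockdown2, SE 0.13 each). FADS2 was dim, with signals of 5.92, 16.7 and 26.3 in knockdown1 and 45.7, 44 and 44.6 in control. The size of its change is thus uncertain.

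Genes of DNA replication and mitosis moved with knockdown1. All 16 listed genes fell in knockdown1, beside 19.0% of all tested genes, and 5 of 16 in knockdown2, beside 13.9%. Their median changes were -1.96 and -0.29. The proliferation marker MKI67 fell by 2.66 in knockdown1 (SE 0.17) and fell by 0.82 in knockdown2 (SE 0.17), and PCNA, the replication clamp, fell by 0.98 in knockdown1 (SE 0.14) and gave -0.022 in knockdown2 (SE 0.14). Their part in the lower signals of ACAT2, IDI1, FDPS and LBR in knockdown1 was not tested.

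The genes most alike to the mean profile of the 7 enzymes over the 9 arrays were SLC37A4, SFT2D2, NHERF1, LOX, GRTP1 and ZNF362, with Pearson correlations from 0.994 to 0.99. This ranking is a description, since arrays of a group share their treatment and any profile that separates control from both knockdowns scores highly. SLC37A4, the glucose-6-phosphate transporter of the endoplasmic reticulum, changed by -1.58 in knockdown1 and by -1.30 in knockdown2. Among the members themselves the correlation with their mean was 0.994 for NSDHL, 0.933 for DHCR7, 0.928 for SQLE, 0.923 for ACAT2, 0.866 for IDI1, 0.848 for LSS and 0.648 for HMGCS1. Each member is part of that mean, which raises these correlations.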

How the data were processed

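RNA of 9 HepG2 samples, 3 per group by sample title, was measured on oligonucleotide arrays. The deposited values are linear intensities made by the authors with MAS5, per the submitters' processing notes, with a trimmed mean of 100.0 on every array; its version is not given in the sources used. Arrays were scaled to a common median because their medians differed by more than 1.2 times, and log2(signal + 1.41) was taken, the pseudocount being 0.1 of the median. Of 54675 probe sets, 41091 had 1 symbol in the platform annotation, and 24565 of them were above their array's median on at least 3 arrays. Each of 13056 genes was read from its brightest kept probe set by mean log2 value. The tests used limma 3.58.1 (R 4.3.3, variance trend, 1 fit of 9 arrays, two-sided, Benjamini-Hochberg adjustment over all tested genes, threshold 0.05), which was tested on simulated data. Percentages of control are ratios of mean signals. The members, the gene lists and the tests were chosen with earlier results of these data known. Named genes were all members, the called genes of the pathway list, the 3 called genes with the largest change of each other list plus any that moved against its majority, and a few set genes such as SREBF2; NPC1, FNTA and SCD were added after their values were seen, to complete small counts; pattern likeness named the 6 highest correlations. Alternatives were other scalings, pseudocounts, filters, probe sets, fits, the replicate number as a block, and each array left out. Deviations of same-numbered arrays from their group means correlated at -0.025 to 0.134 in 9 pairs, over 0.1 in 1. The numbers were not taken as pairs, although low correlations cannot exclude pairing.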

Additional observations from a re-analysis of the deposited data

Results flagged for a closer look

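Against the same controls, the effects of knockdown1 and knockdown2 differed for 3 of the 7 enzymes by the test of the difference itself. In that test 16.1% of all tested genes were called lower and 10.5% higher in knockdown1. ACAT2 gave -0.82 (limma adjusted p = 2.22e-05) and IDI1 gave -0.59 (limma adjusted p = 0.00112) for knockdown1 against knockdown2, with all 3 knockdown1 arrays below all 3 knockdown2 arrays in both cases by the brightest probe set. For IDI1 the dim 242065_x_at had the opposite sign (0.84, adjusted p = 0.0157 over all probe sets), and averaging the probe sets gave -0.10 (adjusted p = 0.662). LSS gave 0.42 (limma adjusted p = 0.0437), with all 3 knockdown1 arrays above all 3 knockdown2 arrays by its brightest probe set and the opposite sign by 1 of its dimmer ones. The LSS call ended in 7 of 9 fits without 1 array. Groups of 3 arrays are too small for a test of single outlying arrays, so replicate 3 of knockdown1 in HMGCS1 is given as a value only.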

How the results depend on the processing

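Members lower in knockdown2 numbered 4 on the scaled values and 7 with values as deposited or quantile normalization. Other synthesis genes lower in knockdown2 numbered 5, against 8 as deposited or quantile normalized and 3 without a variance trend. Between knockdown1 and knockdown2, 2 members were lower, against 1 with probe sets averaged, and 1 was higher, against 0 without the filter or the trend and 2 with the filter on all 9 arrays. Of the other synthesis genes 2 were lower there, against 4 centred on tested genes or with only the arrays compared, and 1 was higher, against 3 as deposited or quantile normalized, 2 centred or with only the arrays compared, and 0 without the filter or trend. Pooling the knockdowns called 2205 genes, against 4256.

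With the replicate number as a block, members higher in knockdown1 than in knockdown2 numbered 2, against 1, members lower in knockdown2 than in control 6, against 4, and all genes called in knockdown1 4996, against 4351. The labels do not state that the numbers pair the arrays, and pairing is not excluded.

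Signs turned for IDI1 with 242065_x_at (0.69 in knockdown1, 0.84 between knockdowns, 0.27 over both) and 233014_at (0.56 in knockdown1, 0.63 in knockdown2, 0.59 over both). Between knockdowns they turned for LSS with 211018_at (-0.59) and averaged probe sets (-0.025), for DHCR7 with 201791_s_at (0.16) and averaged probe sets (0.008), and for SQLE with quantile normalization (0.0089). The cause was not tested.

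Leaving out 1 array in turn left 5 to 7 members lower in knockdown1 (5 of 7 with probe sets averaged), 4 to 6 in knockdown2 and 5 to 7 over both. Between knockdowns it left 2 members lower and 0 to 2 higher, and 2 to 3 other genes lower and 0 to 1 higher. Other synthesis genes lower in knockdown2 numbered 3 to 7. All genes called numbered 3585 to 4613 in knockdown1, 2802 to 4037 in knockdown2, 2706 to 4171 between knockdowns and 3303 to 4428 over both.

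Of genes called in knockdown1, 42.9% were higher, against 54.2% as deposited, 53.7% quantile normalized and 55.0% centred. Between knockdowns the shares were 39.4%, 57.1%, 56.1% and 47.3%, and over both 45.0%, 49.5%, 49.1% and 55.1%. Of the tested genes 31.6% had mean signals under 50, where array background limits precision.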
